A study of Mus musculus with 56 samples.

Results

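Small RNA libraries of the adult mouse liver were compared with those of the juvenile liver. The adult group was 2 livers of stage P270 (replicates A and B) and the juvenile group was 1 liver each of stages P12, P17, P21 and P28, chosen by the stage in their labels, which made 6 of the 42 small RNA libraries and 6 of the 56 samples of the series. All were wild-type 129Sv/J mice with no treatment, the P number being the postnatal day. The sex of the mice was not given. Another table of the study heads these columns in weeks and months, so the postnatal ages are those of the labels only. Where other libraries were used beside them, these were wild-type 129Sv/J livers of the fetal stages E14 and E18 and of P1 and P8 (2 each) and 3 uninjected livers of adult mice that carry LoxP sites around miR-122 and keep the microRNA. Apart from the pairs at E14, E18, P1, P8 and P270, each stage was 1 animal, so no spread between mice of 1 juvenile age could be had and the spread of the juvenile group included the difference in age.

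The 6 libraries held 100879 to 929445 microRNA reads. miR-122, the microRNA that dominates hepatocytes, took 67.5% to 89.5% of them, and the other microRNAs were therefore counted per 1000000 reads other than miR-122 (RPM). This left 244800, 201710, 25032 and 34265 reads in the libraries of P12, P17, P21 and P28, and 21824 and 256603 in P270 replicates A and B. A microRNA with no read may have had up to 3, which came to 12.3, 14.9, 119.8 and 87.6 RPM in the juvenile libraries and to 137 and 11.7 RPM in P270 A and B. These limits cover counting error only, and PCR copies are not separate molecules. The listed values of P28 and P270 A added up to 661131 and 516634 where the other 4 reached 1000000. Those 2 libraries, 1 of each age group, are called short-sum below and the other 4 full-sum. Across the 272 microRNAs tested, the short-sum pair had a Pearson correlation of 0.84 on the log2 scale, against 0.61 to 0.82 between short-sum and full-sum libraries and 0.76 to 0.92 among the full-sum ones. The points share their library, and no test was made of them.

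MicroRNAs are short RNAs, cut from hairpin precursors, that guide the silencing complex to mRNAs, mainly through the seed, bases 2 to 8 of the mature strand. Many are made from clusters whose hairpins share a primary transcript. A large cluster of the mouse lies at chr12qF1, in the imprinted Dlk1-Dio3 region, where the microRNAs are read from the maternal chromosome together with the non-coding RNAs Meg3, Rian and Mirg. This region is active in the fetus and is turned down in the liver after birth.

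The mean over the 6 libraries reached 10 RPM for 272 microRNAs, and 6 of these passed the threshold and all 6 were lower at P270 (limma on log2(RPM + 1), Benjamini-Hochberg adjusted p under 0.05). They made 2.21% of those tested in either direction. None was higher in limma, with 1 higher at an unadjusted p under 0.05, and voom called none in either direction. The 6 were miR-411, miR-382, miR-541, miR-299, miR-337 and miR-376a, and all lie in the chr12qF1 cluster. Of these, miR-411, miR-382 and miR-299 had no read at P270 and could only be lower or equal there. The mature strands of the 6 hairpins are shown here so that their seeds can be compared. The sequences are those of RefSeq (GRCm38.p6), written 5′ to 3′ with the seed in capitals, and the table of expression counts a hairpin without saying which arm its reads came from.
miR-411-5p: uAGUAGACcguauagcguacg
miR-411-3p: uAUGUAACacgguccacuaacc
miR-382-5p: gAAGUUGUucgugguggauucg
miR-382-3p: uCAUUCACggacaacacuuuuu
miR-541-5p: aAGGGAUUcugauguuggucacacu
miR-541-3p: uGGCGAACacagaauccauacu
miR-299a-5p: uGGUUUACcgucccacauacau
miR-299a-3p: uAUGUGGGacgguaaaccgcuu
miR-337-5p: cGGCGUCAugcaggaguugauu
miR-337-3p: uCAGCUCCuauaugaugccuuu
miR-376a-5p: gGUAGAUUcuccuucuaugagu
miR-376a-3p: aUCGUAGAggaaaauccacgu
No seed was shared between these 12 strands, so the 6 hairpins were not 1 seed family. What they shared was their place.

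Each hairpin matched the mm9 genome (NCBIM37) exactly once on chromosome 12, plus strand. miR-337 lay at chr12:110823999-110824095, miR-411 at chr12:110948385-110948466, miR-299 at chr12:110948848-110948910, miR-376a at chr12:110961991-110962058, miR-382 at chr12:110971981-110972056 and miR-541 at chr12:110980619-110980708. In the GENCODE annotation of that build miR-541 fell in an intron of the lincRNA Mirg, on the same strand. The other 5 overlapped no annotated gene besides their own entry.

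miR-376a had the highest mean of the 6 over the libraries, while at P28 miR-337 was above it. It had 12263, 3738, 1838 and 438 RPM from P12 to P28, against 45.6 and 89.8 RPM in P270 A and B. Every juvenile library lay above both adult ones, and the adult values rested on 1 and 23 reads. The means were 4569 ± 5305 (SD, n = 4) and 67.7 ± 31.2 RPM (n = 2), a 67.5-fold lower mean at P270 (29.6-fold without P12), with a log2 change of −5.24 ± 1.24 (SE, limma adjusted p = 0.047).

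miR-541 had 5621, 1314, 599.5 and 117 RPM from P12 to P28 and 0 and 23.4 RPM in P270 A and B, a log2 change of −7.43 ± 1.71 (limma adjusted p = 0.047). miR-337 had 2247, 1165, 80.3 and 788 RPM at the juvenile stages and 0 and 19.6 RPM at P270, a log2 change of −7.14 ± 1.67 (limma adjusted p = 0.047). Without P270 A the log2 changes were −5.12 (miR-541) and −4.96 (miR-337), and without P270 B −9.73 and −9.32. Neither overlapped between the groups by the listed values, but the limit of 137 RPM in P270 A lay above the P28 value of miR-541 and the P21 value of miR-337. For miR-337 the lowest juvenile library was P21 with 2 reads and the short-sum P28 library had 27.

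miR-411 had 1303, 501, 439.8 and 87.4 RPM from P12 to P28 and no read in either P270 library. miR-382 had 629, 273, 80.3 and 292 RPM and miR-299 had 474, 134, 159.7 and 58.8 RPM, both with no adult read. Against the limit of 3 reads in each P270 library, a mean of 74.6 RPM, the juvenile means were at least 7.81-fold (miR-411), 4.27-fold (miR-382) and 2.77-fold (miR-299) higher. These bounds were set by P270 A, the shallow library, and were 49.8-fold, 27.2-fold and 17.7-fold with P270 B alone as adult and 4.24-fold, 2.32-fold and 1.502-fold with P270 A alone. Without P12 those of miR-411 and miR-299 were 4.59-fold and 1.57-fold. The fitted log2 changes were −8.64 ± 1.58 (limma adjusted p = 0.031), −7.98 ± 1.60 (limma adjusted p = 0.036) and −7.30 ± 1.70 (limma adjusted p = 0.047), and for genes at 0 such values depend on the pseudocount. The lowest juvenile values of the 3 rested on 3, 2 and 2 reads. All 3 reached the mean of 10 RPM through the juvenile livers and could only be lower or equal at P270. Their adult zeros entered the fit as equal values, so its p-values do not carry the limits of 137 and 11.7 RPM.

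**Figure D1:**
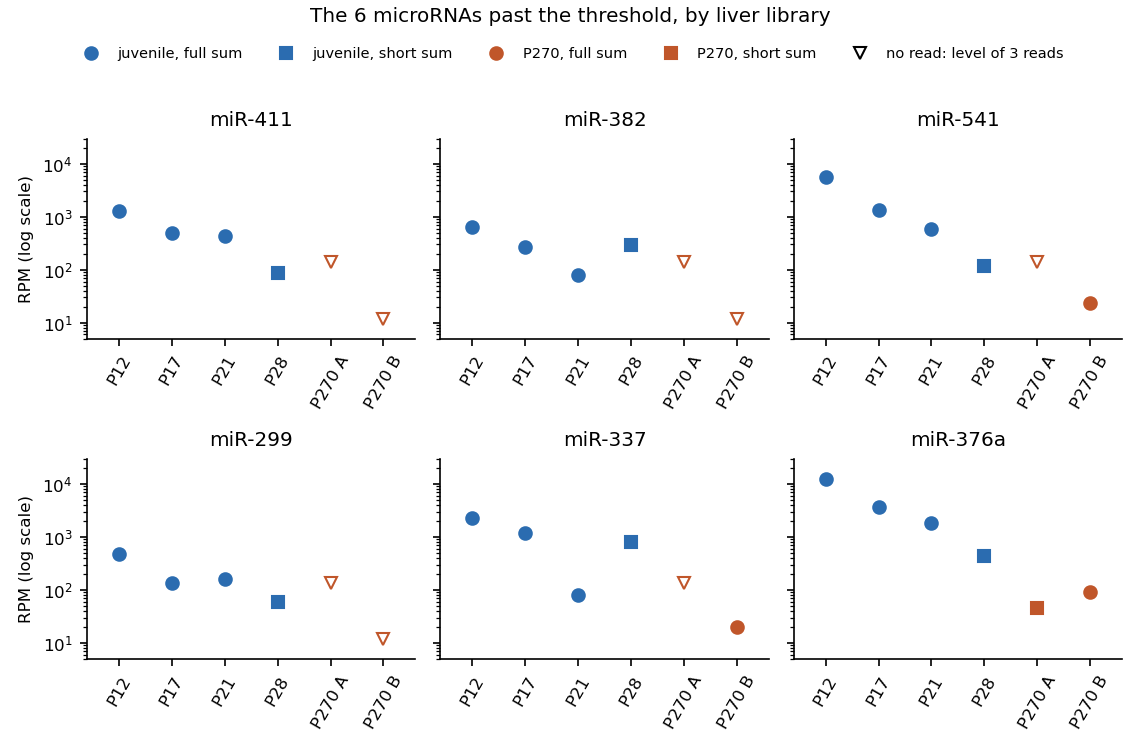
Level of the 6 microRNAs past the threshold in each of the 6 livers, in RPM of reads other than miR-122 on a log axis. Filled points are libraries with a read and open triangles stand at the level of 3 reads in libraries without one. Among libraries with a read all juvenile points lie above the P270 points, while the limit of P270 A (137 RPM) lies above the P28 points of miR-411, miR-541 and miR-299, the P21 points of miR-337 and miR-382 and the P17 point of miR-299.

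In the short-sum pair alone these differences were partly below what the reads could show. P28 had 3, 4 and 2 reads of miR-411, miR-541 and miR-299 where P270 A had none, which was not detectable at this depth. For miR-337 the pair had 27 reads and 0, for miR-382 10 and 0, and for miR-376a 15 and 1. In the full-sum libraries the P270 B values of all 6 lay below P12, P17 and P21.

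The 6 calls rested on several libraries at once. Without P12, P17, P21 or P270 A the limma test called 0 microRNAs, without P28 it called 12 (4.41% of those tested) and without P270 B 11 (4.04%), all lower at P270. With 10 in place of 1 as pseudocount it called 0, and with libraries scaled to all reads including miR-122, or centred on their median, it called 0 as well. At an unadjusted p under 0.05 these 7 settings of the limma test gave 28, 29, 49, 24, 44, 36 and 29 microRNAs in the same order. The log2 change of each of the 6 stayed negative in all 20 other settings. Since the 6 were picked as lower in these same livers, that sign is a description. Of the 20 settings, miR-411 still passed in 9, miR-382 and miR-541 in 10 each, miR-337 and miR-376a in 8 each and miR-299 in 5. The short-sum pair alone, among the 20, had no test. Reads of any cell that makes these microRNAs were pooled in whole liver, so fewer such cells and less RNA per cell cannot be told apart.

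When a term for the short sum was added to the fit, 15 microRNAs passed the threshold, 5.51% of those tested, and all 15 were lower at P270. The 6 above were among them. Of the 15, 11 lay in the chr12qF1 cluster and 4 elsewhere. The further cluster members were miR-127, miR-136, miR-369, miR-409 and miR-1193. Of these, miR-409 and miR-1193 had no read at P270 and could only be lower or equal there.

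miR-127, which is transcribed antisense to the imprinted gene Rtl1 and pairs perfectly with its mRNA, had 7369, 3257, 2836 and 29.4 RPM from P12 to P28 and 0 and 66.4 RPM in P270 A and B. The groups overlapped, since P28 had 1 read and P270 B had 17. Its log2 change was −7.19 ± 2.12 without the term (limma adjusted p = 0.090) and −5.52 ± 0.98 with it (limma adjusted p = 0.0053). miR-127 was also lower in the short-sum than in the full-sum libraries by that same fit (limma adjusted p = 0.00032), and within the short-sum pair the values of 1 read and 0 could not show a difference. Without P270 A its log2 change in the fit without the term was −4.15, and without P270 B −10.2. In that fit it passed where P28 was left out (limma adjusted p = 0.021) and missed with the floxed adults added (limma adjusted p = 0.062).

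miR-136, likewise antisense to Rtl1, had 2766, 1715, 399.7 and 1838 RPM in the juvenile livers and 229 and 19.6 RPM at P270, a 13.5-fold lower mean (85.7-fold without P270 A and 7.33-fold without P270 B). miR-369 had 2627, 853, 399.7 and 497 RPM and then 91.3 and 11.7 RPM, a 21.2-fold lower mean (11.3-fold without P12, 93.5-fold without P270 A and 11.99-fold without P270 B). Neither overlapped between the groups, and both missed the threshold without the term (limma adjusted p = 0.090 and 0.081). The values in P270 A and B rested on 5 and 5 reads for miR-136 and on 2 and 3 reads for miR-369.

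Of the 52 hairpins listed for the cluster, 38 were tested and 13 had both P270 libraries below all juvenile ones. Over all tested microRNAs 46 of 272 did so, 16.9%. Of the 38, 22 had no read in either P270 library, so they reached the mean of 10 RPM through the juvenile livers and could only be lower or equal at P270, and the counts and median over the 38 are a description. That median log2 change was −4.78, beside −1.41 for all tested, and depends on the pseudocount (−3.07 with 10 in place of 1) and the scaling (−3.61 per read with miR-122 included). In neither P270 liver was there a read for 35 of the 52, and 4 of the 52 had no read in any of the 6 libraries. Of the 38, 21 were lower both in the full-sum and in the short-sum libraries, a share near the 51.5% of all tested.

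Of the 52 hairpins 50 were placed on mm9, and they fell into 2 blocks over 180104 bases. The upstream block, from miR-770 to miR-370 at chr12:110801902-110856546, held 15 hairpins around Meg3, Rtl1 and Rian. Its summed level was 15351, 6827, 3716 and 2773 RPM from P12 to P28, and 229 and 132.8 RPM in P270 A and B. The downstream block, from miR-379 to miR-410 at chr12:110947270-110982005, held 35 hairpins. It summed to 34441, 9711, 4477 and 2773 RPM in the juvenile livers and to 228 and 226 RPM at P270. Both blocks were thus lower in both adult libraries than in every juvenile one, and at P28 and in P270 A the 2 blocks held nearly equal sums. At P1 the upstream block had summed to 68841 and 59218 RPM and the downstream block to 141534 and 140492 RPM in the 2 livers.

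The whole cluster gave 12205, 3340, 205 and 190 reads in the juvenile libraries and 10 and 92 reads at P270. As a share of the reads other than miR-122 the P270 mean was 49.1-fold below the juvenile mean, and 24.8-fold without P12. The gap was 69.3-fold within the full-sum libraries and 12.1-fold within the short-sum pair, and these 2 contrasts share no library. The uninjected floxed adults had 281, 301 and 338 RPM (A, B and C), all below both P270 livers. Adding them to the adult group gave 25 calls, 9.19% of those tested, all lower in adults, of which 16 were in the cluster and all 6 of the first calls were included. These mice differ from the wild-type ones in genotype.

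**Figure D2:**
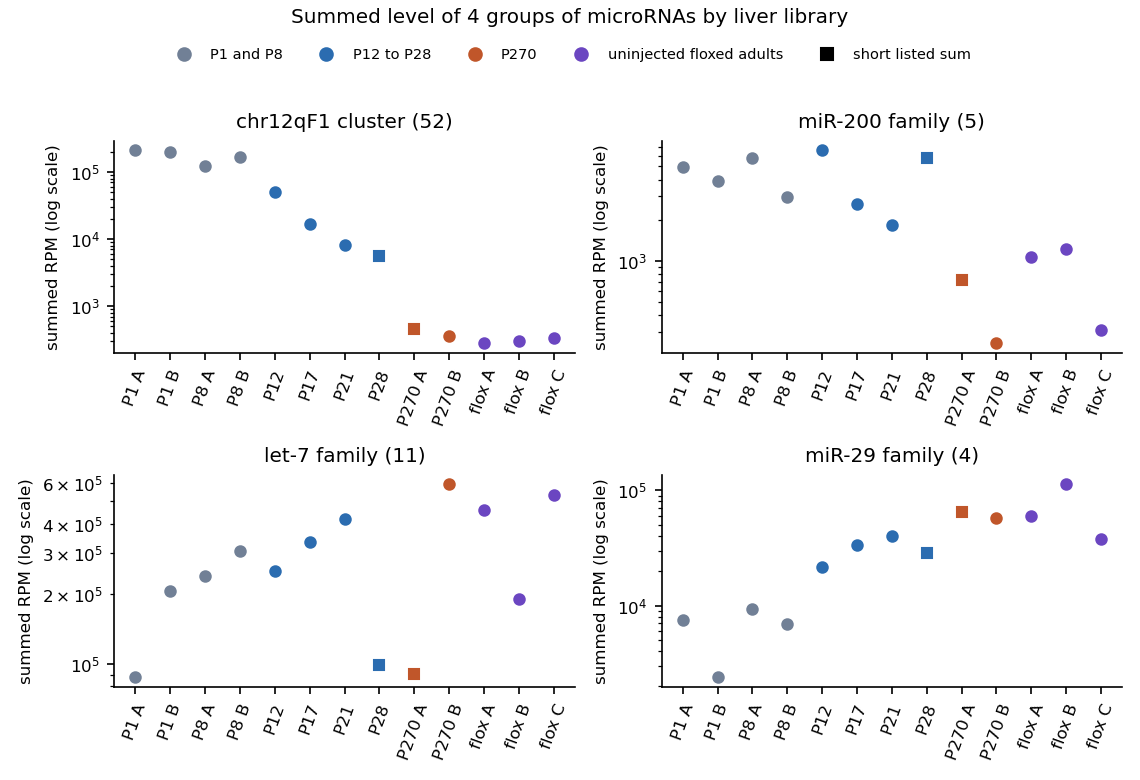
Summed RPM of 4 groups of microRNAs in each liver on log axes, with the number of hairpins listed in brackets. Grey points are P1 and P8, blue P12 to P28, orange P270 and purple the 3 uninjected floxed adults, and squares are short-sum libraries. The chr12qF1 sum falls from 49858 RPM at P12 to 457 and 359 RPM at P270, the miR-29 sum is higher in both P270 livers than in every juvenile liver, and the let-7 sums of P28 and P270 A, the short-sum libraries, lie below those of the other 4 livers compared, at the level of 1 of the P1 livers.

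A pair of microRNAs from the imprinted Igf2-H19 region was also listed, miR-483, in an intron of the fetal growth factor gene Igf2, and miR-675, made from the non-coding RNA H19. miR-483 had 5408, 1611 and 240.0 RPM at P12, P17 and P21 and no read at P28 or in either P270 liver. miR-675 had 204, 129, 0 and 87.4 RPM from P12 to P28 and no read at P270. Both groups overlapped because a juvenile library also had no read, and neither passed the threshold (limma adjusted p = 0.16 and 0.29). With 3 reads in each adult library as the limit, the juvenile mean of miR-483 was at least 24.3-fold and that of miR-675 at least 1.41-fold higher. Without P12 the first was at least 8.28-fold and the second gave no bound above 1. With P270 A alone as adult the first was at least 13.2-fold and the second gave none, and with P270 B alone they were at least 155.2-fold and 8.99-fold. Their reads in the juvenile libraries together were 1374, 351, 6 and 3. No read of either was present in the 3 uninjected floxed adults. With those mice in the adult group both passed (limma adjusted p = 0.024 for miR-483 and 0.042 for miR-675, and 0.0030 and 0.023 with the term for the short sum as well). With no adult read, both reached the mean of 10 RPM through the juvenile livers and could only be lower or equal in adults. The floxed adults added further libraries at 0, so these calls are a description.

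Outside the chr12qF1 cluster, 2 of the 4 calls with the term belonged to the miR-200 family. These microRNAs mark epithelial cells, in the liver those of the bile ducts, and hold back the transcription factors Zeb1 and Zeb2. Their 3p strands fall into 2 seed groups that differ at 1 base of the seed, and they are shown because reads of near-identical strands may be shared.
miR-200a-3p: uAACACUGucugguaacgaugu
miR-141-3p: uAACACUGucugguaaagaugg
miR-200b-3p: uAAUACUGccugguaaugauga
miR-200c-3p: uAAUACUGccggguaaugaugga
miR-429-3p: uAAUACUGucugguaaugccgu
miR-200b and miR-200c differ at 2 bases, as do miR-200a and miR-141, which is no more than the 2 mismatches the authors allowed, so their reads cannot be fully told apart. miR-200b, miR-200a and miR-429 lie within 2 kb on chromosome 4 of mm9, miR-200b at chr4:155429790-155429859 on the minus strand, in an intron of Ttll10. miR-200c and miR-141 lie on chromosome 6.

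miR-200b had 3893, 1002, 1079 and 2043 RPM in the juvenile livers and 183 and 74.0 RPM in P270 A and B. The groups did not overlap and the mean was 15.6-fold lower at P270 (27.1-fold without P270 A). Its log2 change was −3.86 ± 1.01 (limma adjusted p = 0.081) and −4.05 ± 0.85 with the term for the short sum (limma adjusted p = 0.010).

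miR-200a had 2132, 1235, 599.5 and 2802 RPM and then 412 and 132 RPM, a 6.21-fold lower mean (12.8-fold without P270 A and 4.10-fold without P270 B). miR-429 had 433, 327, 80.3 and 408 RPM and then 45.6 and 15.5 RPM. Neither overlapped between the groups by the listed values, but for miR-429 the P270 A value was 1 read and the P21 value 2 reads. Counting error could close that gap. The other two did overlap, miR-200c with 65.3, 84.4, 80.3 and 525 RPM against 91.3 and 23.4 RPM and miR-141 with 53.2, 14.8, 0 and 0 RPM against 0 and 3.79 RPM. Without the term none of the 5 members passed, and with it miR-200b and miR-200a did (limma adjusted p = 0.040 for miR-200a). The family summed to 6577, 2663, 1839 and 5779 RPM in the juvenile livers and to 733 and 249 RPM at P270. That sum was 14.8-fold lower in the full-sum libraries and 7.89-fold lower within the short-sum pair. The floxed adults had 1066, 1235 and 311 RPM, all below the lowest juvenile value. With them in the adult group 2 of the 5 passed, beside 9.19% of all tested, and 3 with the term as well, beside 20.6%.

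The remaining 2 calls with the term were chosen for mention after their values were seen. miR-335, which lies in an intron of the imprinted gene Mest, had 31344, 8294, 27604 and 2393 RPM from P12 to P28 and 458 and 1411 RPM at P270, an 18.6-fold lower mean (12.3-fold without P270 A and 38.0-fold without P270 B) that passed with the term (limma adjusted p = 0.016) and not without it (limma adjusted p = 0.090). miR-181c had 1609, 655, 679 and 117 RPM and then 0 and 81.9 RPM (limma adjusted p = 0.020 with the term and 0.090 without). Neither overlapped between the groups by the listed values, though the limit of 137 RPM in P270 A lay above the P28 value of miR-181c. Both were also lower in short-sum than in full-sum libraries (limma adjusted p = 0.041 and 0.024 for the term itself). With all 14 wild-type libraries in 1 fit both passed without the term (limma adjusted p = 0.029 for miR-335 and 0.026 for miR-181c). With the floxed adults added miR-335 passed (limma adjusted p = 0.025) and miR-181c did not (limma adjusted p = 0.18). Leaving out P28, miR-335 passed as well (limma adjusted p = 0.031) and miR-181c did not (limma adjusted p = 0.061).

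miR-375, best known from pancreatic islets and also made in other epithelia, had 159.5, 59.5, 119.5 and 29.4 RPM in the juvenile livers and no read at P270. The juvenile values rested on 39, 12, 3 and 1 reads, and the call was not made with or without the term (limma adjusted p = 0.059 and 0.090). The call was made with the floxed adults added (limma adjusted p = 0.023, and 0.0067 with the term) and with all 14 wild-type libraries in 1 fit (limma adjusted p = 0.0063). It was the only 1 of the 4 pancreatic microRNAs with enough reads to be tested. With no read at P270, it reached the mean of 10 RPM through the juvenile livers and could only be lower or equal there.

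Among higher values at P270 none passed the threshold. Only 2 of 272, 0.735%, had both P270 libraries above all juvenile ones, miR-29c and miR-592. The miR-29 family, which targets mRNAs of collagens and other matrix proteins, was the list with the highest median log2 change after the sparse neuronal list. Its 3p strands carry 1 seed.
miR-29a-3p: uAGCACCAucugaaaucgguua
miR-29b-3p: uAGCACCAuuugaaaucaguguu
miR-29c-3p: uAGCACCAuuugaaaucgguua
miR-29a and miR-29c differ at 1 base, and miR-29b-3p is the product of both miR-29b hairpins, so reads can be shared within the family. miR-29c lies at chr1:196863741-196863828 beside miR-29b-2, both in an exon of the lincRNA A330023F24Rik, and miR-29a lies beside miR-29b-1 on chromosome 6.

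miR-29c had 6131, 9891, 14621 and 6799 RPM from P12 to P28 and 17962 and 15842 RPM in P270 A and B. Its mean was 1.81-fold higher at P270, with a log2 change of 0.94 ± 0.87 (limma adjusted p = 0.59). miR-29b-2 had 1242, 2821, 599.5 and 9106 RPM and then 20574 and 6727 RPM, a log2 change of 2.49 ± 1.12 (limma adjusted p = 0.29).

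The family sum was 21793, 33548, 39949 and 28805 RPM in the juvenile livers and 65433 and 57462 RPM in P270 A and B. Both adult sums lay above all juvenile ones, and the mean was 1.98-fold higher. The sum was 1.81-fold higher within the full-sum libraries and 2.27-fold higher within the short-sum pair. All 4 members were higher in both kinds of library, which 28 of all 272 (10.3%) were. In the floxed adults the sum was 60288, 112359 and 37426 RPM, and floxed C lay below the juvenile P21 liver. With these mice and the term for the short sum together, 58 microRNAs passed (56 lower, 20.6%, and 2 higher, 0.735%), and the 2 higher ones were miR-29b-1 and miR-29b-2 (limma adjusted p = 0.023 and 0.010).

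miR-592, the other microRNA with separate groups, had 16.3, 4.93, 80.3 and 0 RPM and then 367 and 85.7 RPM. These were 4, 1, 2 and 0 reads against 8 and 22, and it missed the threshold (limma adjusted p = 0.33). In the floxed adults it had 0, 63.4 and 0 RPM.

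**Figure D3:**
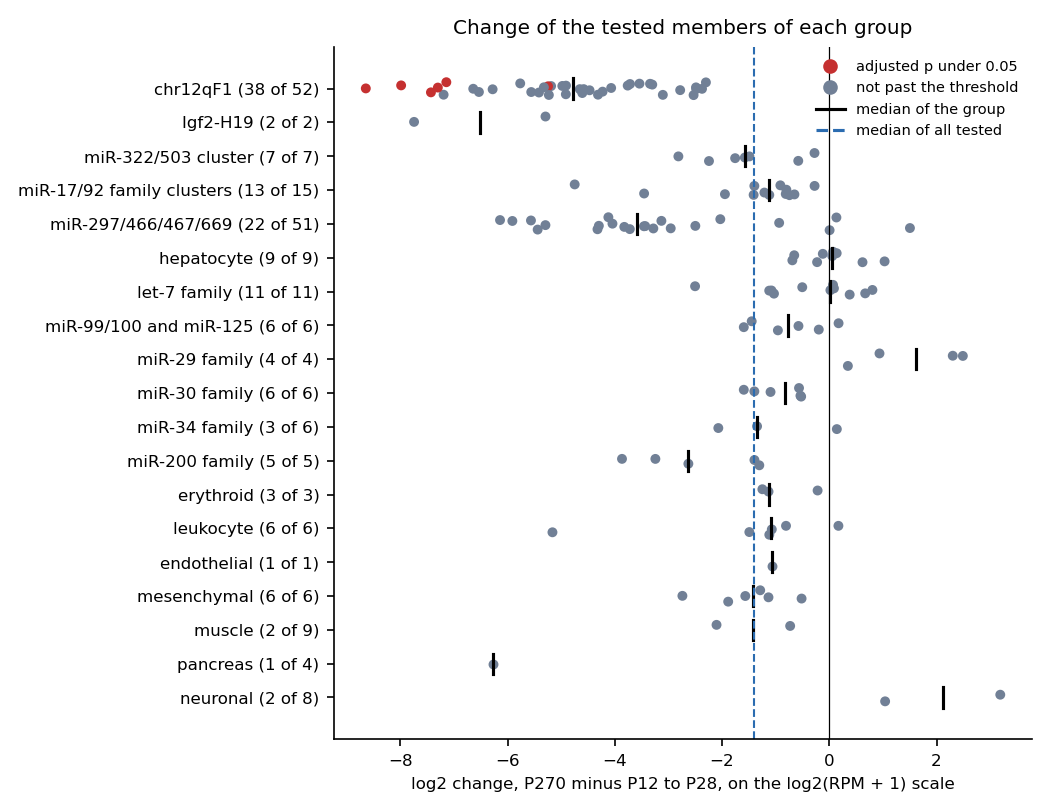
Log2 change of each tested member of 19 groups of microRNAs between P270 and the juvenile livers, with the number tested of the number listed. Red points passed the threshold, black bars are group medians and the dashed line is the median of all 272 tested (−1.41). The 6 red points are all in chr12qF1, and the miR-29 family lies to the right of 0.

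The median of all 272 log2 changes was −1.41, and 48 of the 272 had no read in either P270 liver. P270 A, the shallowest library, lacked reads for 98 of the 272 and P270 B for 53, against 5, 7, 60 and 46 in the juvenile libraries in order of age. For the 181 microRNAs that averaged 100 RPM or more the median was −1.05. Centring the libraries on their median ratio raised every log2 change by 1.68 and moved the median of all to 0.27. Of the 19 lists described, 15 had a negative median log2 change. The same amount is added to each, so a list turns positive where its median lies above −1.68, which says nothing further of that list. The 5 below it were chr12qF1 (−3.10), Igf2-H19 (−4.83), the miR-200 family (−0.94), the group of miR-297, miR-466, miR-467 and miR-669 (−1.90) and the single tested pancreatic microRNA, the values being those after centring.

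The let-7 family, whose levels climb as tissues mature and which represses growth regulators such as Lin28 and Hmga2, had 11 of 11 members tested and none past the threshold, with a median log2 change of 0.021. Its sum was 250639, 333181, 417895 and 98788 RPM in the juvenile livers and 90727 and 589222 RPM in P270 A and B. The groups overlapped widely, and the low values were those of the 2 short-sum libraries. Within the full-sum libraries P270 B was 1.76-fold above the juvenile mean, and within the short-sum pair the ratio was 0.918. let-7a-2, with 57267, 80898, 70388 and 11294 RPM and then 7973 and 119765 RPM, differed between the kinds of library (limma adjusted p = 0.0066) and not detectably between the ages (limma adjusted p = 0.84).

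The miR-30 family, abundant in liver, had none of 6 members past the threshold and a median log2 change of −0.83. It summed to 69999, 69744, 82734 and 58923 RPM in the juvenile livers and 52282 and 19766 RPM at P270, so both adult sums lay below all juvenile ones. The difference was 3.75-fold within the full-sum libraries and 1.13-fold within the short-sum pair. miR-30e, with 9796, 8254, 10267 and 3648 RPM and then 4811 and 2506 RPM, overlapped between the groups (limma adjusted p = 0.55). With the floxed adults and the term 1 member each of the miR-30 and let-7 families was called lower, miR-30a and let-7e.

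Other clusters tied to growth were described by their sums. The X-linked cluster of miR-322 and miR-503, which restrains the cell cycle, had 4191, 3872, 4115 and 2189 RPM in the juvenile livers and 916 and 1001 RPM at P270, a 3.75-fold lower mean with no overlap. None of its 7 members passed, and miR-503, with 294, 188, 240.0 and 234 RPM and then 45.6 and 23.4 RPM, did not overlap between the groups, beside 16.9% of all tested. miR-503 passed with all 14 wild-type libraries in 1 fit (limma adjusted p = 0.018), where 10.3% of all tested were called lower. With the floxed adults and the term 2 of the 7 passed, beside 20.6% of all tested (limma adjusted p = 0.035 for miR-503). The miR-17/92 family clusters, which promote proliferation, overlapped at 8710 to 36567 RPM against 19383 and 3301 RPM, and none of the 13 tested passed, with 1 called lower in the fit of all 14 wild-type libraries. The group of miR-297, miR-466, miR-467 and miR-669, which comes from a repeat-rich cluster of near-identical members in an intron of the imprinted gene Sfmbt2, summed to 746, 603, 3277 and 1374 RPM and then 320.3 and 163 RPM. It rested on 47 to 182 reads in the juvenile libraries and on 7 and 42 at P270, and none of its 22 tested members passed. Of the 22, 7 did not overlap between the groups, beside 16.9% of all tested. Of the 22, 12 had no read at P270, so they reached the mean of 10 RPM through the juvenile livers and could only be lower or equal, and the median log2 change of −3.59 depends on the pseudocount for them. With the floxed adults added 3 of the 22 passed, beside 9.19% of all tested, and 7 with the term as well, beside 20.6%, all lower in adults. The fit of all 14 wild-type libraries called 5 of the 22 lower, beside 10.3% of all tested.

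Of the 9 hepatocyte microRNAs other than miR-122 none passed, 4 were lower and 1 higher in both kinds of library, and their sum overlapped at 45701 to 154207 RPM against 155975 and 45681 RPM. miR-192, which is made in liver and gut, had 22696, 52119, 22771 and 56558 RPM in the juvenile livers and 52740 and 25845 RPM at P270. The share of miR-122 itself was 78.4 ± 9.76% (SD, n = 4) in the juvenile livers and 73.4 ± 7.07% (n = 2) at P270, a difference of −5.08 percentage points, less than the spread between the juvenile livers, which were of different ages (exact two-sided permutation test, p = 0.67, the smallest possible being 0.13). With the deposited total of 1000000 as the denominator the difference was −17.0 percentage points (exact two-sided permutation test, p = 0.40).

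Markers of other cells of the liver were described in the same way. miR-126, the endothelial microRNA, had 64387, 58956, 54169 and 32628 RPM in the juvenile livers and 22590 and 25970 RPM at P270, a 2.16-fold lower mean without overlap (limma adjusted p = 0.57). The floxed adults had 37749, 42476 and 38189 RPM, all above the P28 liver. The mesenchymal list summed to 22781, 13609, 5513 and 9339 RPM and then 3987 and 3714 RPM, also without overlap, and its P12 value was mostly miR-145 with 16662 RPM. In the floxed adults that list summed to 6971, 9548 and 4670 RPM, which overlapped the juvenile values. The leukocyte list overlapped at 2398 to 9864 RPM against 6232 and 2436 RPM, though miR-223 of neutrophils and macrophages (976, 570.1, 359.5 and 759 RPM, then 229 and 214.3 RPM) and miR-342 (1299, 337, 159.7 and 117 RPM, then 0 and 70.2 RPM) did not overlap. The erythroid list, led by miR-451, overlapped at 5513 to 23930 RPM against 6919 and 14458 RPM. The limit of 137 RPM in P270 A lay above the P28 value of miR-342, and 16.9% of all tested were lower without overlap. No member of these 4 lists passed the threshold. In other settings miR-342 alone of them did, with all 14 wild-type libraries (limma adjusted p = 0.047), without P270 B (limma adjusted p = 0.035) and with the floxed adults and the term (limma adjusted p = 0.023). The part of these cells in the lower values of other microRNAs was not tested.

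Of the muscle list 2 of 9 were tested and 3 had no read in any of the 6 libraries. The list summed to at most 118 RPM in any library. The neuronal list had 2 of 8 tested, both hairpins of miR-219, which reached 467.1 RPM at P28 and 275 RPM in P270 A and at most 14.8 RPM in the full-sum libraries. The miR-34 family overlapped at 40.2 to 584 RPM against 687 and 50.6 RPM, and the miR-99/100 and miR-125 group at 5019 to 30841 RPM against 4581 and 20210 RPM.

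miR-21, often raised in injured or growing tissue, had the highest mean over the 6 libraries after miR-122, while 9 others were above it at P21 and 9 in P270 B, let-7a-2 among them each time. It had 91923, 91141, 25686 and 162262 RPM from P12 to P28 and 183652 and 31827 RPM at P270, with a log2 change of −0.0079 ± 1.13 (limma adjusted p = 0.998). The short-sum libraries held the highest values in each age group. miR-706, among the 10 most abundant on average, had 1319, 332, 119.5 and 131882 RPM and then 179894 and 483 RPM, and so was abundant only in the short-sum pair. Of the 272 tested, 14 (5.15%) were higher and 23 (8.46%) lower in the short-sum libraries by the term of the fit. miR-1198 and miR-193, named after their values were seen, and the hepatocyte microRNA miR-148a (408.5, 1844, 159.7 and 37530 RPM, then 31388 and 159.6 RPM) behaved as miR-706 did.

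Since each kind of library held both ages, the change could be taken within each. In the full-sum libraries P270 B was compared with P12, P17 and P21, and in the short-sum libraries P270 A with P28. Lower values in both were seen for 140 of the 272 (51.5%) and higher values in both for 28 (10.3%). Across the 181 microRNAs that averaged 100 RPM or more the 2 changes had a Pearson correlation of 0.52, and across all 272 of 0.28, as a description of points that share a library.

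**Figure D4:**
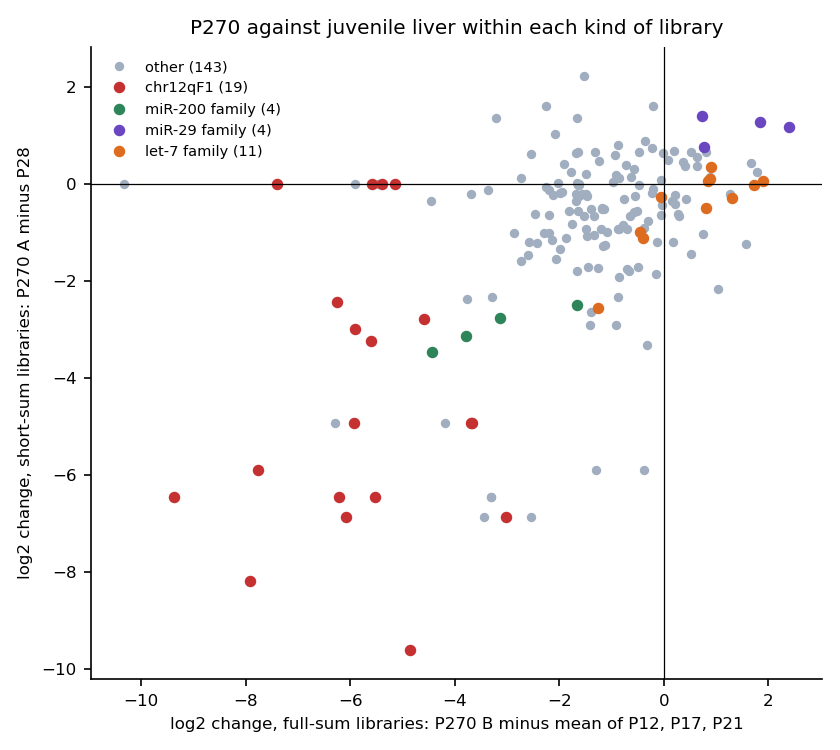
Log2 change between P270 and juvenile liver within the full-sum libraries (x axis) and within the short-sum pair (y axis) for the 181 microRNAs that averaged 100 RPM or more. The chr12qF1 members (red) lie at the lower left or, where neither P28 nor P270 A had a read, on the line at 0, the miR-200 family (green) lies below 0 on both axes and the miR-29 family (purple) above 0 on both.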

How the data were processed

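The authors extracted liver RNA with Trizol, cut out small RNA from a gel, sequenced it on a miSeq, aligned it to mouse microRNAs of miRBase release 15 with Bowtie 0.12.7, allowing 2 mismatches, and deposited RPM values with 1 added. How reads that match several hairpins were counted is not given in the sources used here. The added 1 was removed, miR-122 was set aside and the other 478 rows were scaled to their sum. Low values were whole multiples of a step taken as 1 read (within 0.1 read, for 99.55% of values in the least whole of the 6 libraries). The RNA-seq table of the series was not used.

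log2(RPM + 1) was tested for microRNAs averaging 10 RPM or more over the 6 libraries, with limma 3.58.1 in R 4.3.3 (lmFit, eBayes with trend, 4 residual degrees of freedom), which was tested on simulated data, and p-values were adjusted by Benjamini-Hochberg. A second fit had a term for the short listed sum. Levels of miR-122 were compared with an exact permutation test in scipy 1.17.1. Lists are described by counts and medians, without a test. Named are the 10 largest rises and falls past the threshold with separate groups (where fewer than 5, filled with the smallest p, said to have missed), members of the lists, microRNAs the study names and the 10 most abundant. The members and lists were chosen with earlier results of these data known. Hairpins of RefSeq were placed on mm9 by exact match. Alternatives were the pseudocount, filter, scaling, library term, added groups and each library left out. Python 3.11.15, with pandas 2.3.3, numpy 2.4.6 and matplotlib 3.10.9, was used for tables and figures.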

Additional observations from a re-analysis of the deposited data

Results flagged for a closer look

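In the 4 juvenile livers 1 library stood far from the other 3 (Dixon's test at the 95% level) for 4 of the 45 quantities examined, where chance flags about 1 in 20. miR-706 was 131882 RPM at P28. The neuronal list summed to 641.9 RPM at P28, all of it from the 2 hairpins of miR-219, and the cluster of miR-322 and miR-503 to 2189 RPM at P28. P28 was the juvenile library with a short listed sum, and P270 A, the other such library of the 6 compared, was also high in miR-706 and in the neuronal list. Outside the 6, E14 replicate A had a short listed sum too (676837). It entered the fit of all 14 wild-type libraries, which had no term for the short sum. miR-410, the last hairpin of the chr12qF1 cluster, was 408.5 RPM at P12.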

How the results depend on the processing

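No paired analysis was possible because the juvenile stages are 1 animal each and share no replicate number with P270 A and B. The depth of P21, P28 and P270 A limits values under about 100 RPM. The count models planned on recovered reads were not run, since the deposited unit is RPM, and voom on those reads was tried in their place after the data had been seen.

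In place of 6 microRNAs, all lower, 0 passed with a pseudocount of 10, with scaling to all reads, with centred libraries, in the full-sum libraries alone, with P21 and P28 alone as juvenile, and with voom. At an unadjusted p under 0.05 these 6 settings gave 44, 36, 29, 40, 18 and 48 microRNAs in that order, beside 45 (44 lower and 1 higher) in the test as reported. Further, 15 passed with the term for the short sum, 28 with all 14 wild-type libraries in 1 fit, 25 with the floxed adults added, 11 with voom and the term, and 58 (56 lower and 2 higher) with the floxed adults and the term, the last chosen after the data had been seen. With no filter on low values 9 passed and with a mean of at least 100 RPM 5 passed, all lower. In both of these miR-299 missed the threshold (limma adjusted p = 0.076 and 0.098). Leaving out each library gave 0 to 12, all lower. The cause was not tested.

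The log2 ratio of the summed chr12qF1 level was −5.62, and −3.60 in the short-sum pair (−5.93 to −4.63 with each library left out). That of Igf2-H19, with 3 reads as the limit at P270, was −4.69, and −7.76 in the full-sum libraries (−7.36 to −3.21 with each left out). The short-sum pair could give no ratio for Igf2-H19. The miR-122 difference was −10.1 to −0.080 percentage points with each library left out, −17.0 with the deposited total of 1000000 as denominator, and negative in all settings run.

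Of the microRNAs named with a log2 change, those without a call changed sign as follows. miR-21 had log2 changes of 0.40 with all reads, 1.67 centred, 0.18 in the short-sum pair and 0.24 against P21 and P28 (−1.27 to 1.26 with each left out). let-7a-2 had 1.18 centred, 0.28 with the term, 0.80 in the full-sum libraries, 0.13 against P21 and P28, 0.21 with floxed adults, 0.43 with voom and the term and 0.062 with floxed adults and the term (−2.46 to 1.45). miR-30e had 0.59 centred and 0.40 in the short-sum pair, and miR-126 had 0.61 centred. miR-1-1, at 0 to 29.4 RPM, had 0.95 centred, 2.21 in the full-sum libraries, 0.17 with floxed adults, 0.44 with voom, 0.21 with voom and the term and 0.13 with floxed adults and the term (−3.03 to 1.57). miR-1-2 had 0.38 in the full-sum libraries, 0.25 with voom and 0.051 with voom and the term (−4.41 to 0.20). Of 12 further hairpins given by level alone, among them miR-192, miR-193 and miR-148a, 10 changed sign in at least 1 setting.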
